A study of Bos taurus with 6 samples.

Results

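HOXD11 is a homeobox gene of the HOXD cluster, and a short stretch inside it is the HOX entry of a table of regions whose blood DNA methylation was listed as differing between Creole and Spanish cattle. The gene was chosen through that listing, so the values of the listed stretch are a description and carry no test. The members examined were all covered cytosines from 150000 bp below to 150000 bp above the gene range given in the authors' deposited table, that is 20689236 to 20991537 on chromosome 2 of UMD3.1 (the HOXD interval). Of 2818800 cytosines with at least 10 read calls in any library, 1851 lay in this interval. Each library held a part of them: Creole 1, 2 and 3 had 976, 322 and 137, and Spanish 1, 2 and 3 had 368, 752 and 313.

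DNA came from the blood of 6 adult male cattle of 5 breeds and was read by reduced representation bisulfite sequencing, in which MspI cuts at CCGG sites and bisulfite turns unmethylated cytosine into a base read as thymine. Creole 1 was a Sanmartinero, and both Creole 2 and Creole 3 were of the breed Costeno con Cuernos. Spanish 1 was a Retinta, Spanish 2 came from the breed Asturiana de los Valles, and the Lidia breed gave Spanish 3. Each animal gave 1 library. The comparison asks how blood methylation differs between Creole cattle, which are adapted to the tropics, and cattle of Spanish breeds. Creole cattle have Iberian ancestors, but the Spanish animals sampled were of present-day breeds and not those ancestors. Each group had its own extraction kit and its own sequencing lane, so every difference between Creole and Spanish libraries is also one of these. The spread between libraries of a group is also one between breeds, except between Creole 2 and Creole 3, which share a breed. Blood is a mixture of cells, so a methylated share of calls cannot tell a share of the cells from a share of the alleles.

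HOX genes encode transcription factors that set position along the body axes, and in vertebrates the genes of a cluster stand in the order in which they act. In mouse, HOXD genes of the HOXD9 to HOXD13 end pattern the limbs and genitalia, and Hoxd11 acts in the forearm together with its paralogue Hoxa11. In tissues where HOX genes are silent, their CpG islands are typically held by Polycomb proteins and carry little DNA methylation. In the order of genes given by RefSeq for ARS-UCD2.0, used for names and order only, HOXD11 lies between HOXD10 and HOXD12. Beyond HOXD10 follow HOXD9, HOXD8, the microRNA gene MIR10B, HOXD4, HOXD3, HOXD1 and MTX2, a mitochondrial import gene. Beyond HOXD12 follow a long noncoding RNA gene, HOXD13 and EVX2, another homeobox gene. The UMD3.1 positions of these neighbours were not used here, so windows away from HOXD11 are given by coordinates alone.

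The cytosines with enough calls were packed into the middle of the interval and were rarely the same in different libraries. The first lay at 20759876 and the last at 20982569. A block of 10000 bp that begins with HOXD11 (20839236 to 20849235) held 313 of them, and the block after it (20849236 to 20859235) held 268. Of the 1851 cytosines, 1123 reached 10 calls in 1 library only, 470 in 2, 232 in 3, 22 in 4, 3 in 5 and 1 in all 6. Over the whole series, total calls ran from 40986296 in Spanish 1 to 84537374 in Creole 1. The median depth of an interval cytosine was 19, 39.5 and 68 calls in Creole 1 to 3 and 22, 26 and 38 calls in Spanish 1 to 3. Cytosines just under the threshold, with 8 or 9 calls, numbered 100 in Creole 1 with a mean level of 22.2%, beside 159 with 10 or 11 calls and a mean of 23.8%. The sides differed most in Creole 2, with 17 cytosines at 82.4% just under and 8 at 1.14% just above, and in Spanish 3, with 20 at 55.0% just under and 26 at 0.0% just above.

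The listed HOXD11 region spans 86 bp and 11 CpGs (chromosome 2, 20840988 to 20841073), on an exon and in the core of a CpG island, per the authors' deposited table. The gene range there is 20839236 to 20841537 and the island 20840649 to 20842300. The group means in the authors' deposited table are 69% for Creole and 10% for Spanish cattle, and how they were computed is not stated there. It was the 1 region listed in the interval and the 1 region with a HOX gene name among 334.

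In the deposited counts, 1 Creole and 2 Spanish libraries covered the region, and every cytosine in it was read either as fully methylated or as fully unmethylated. Creole 1 had 232 methylated of 319 calls, a level of 72.7% (95% Wilson interval 67.6 to 77.3%). Spanish 1 had 0 of 396 calls, which allows a share of up to 0.758%, and Spanish 2 had 0 of 594 calls, which allows up to 0.505%. These limits for a count of 0 are 3 divided by the number of calls. The upper Wilson limits are 0.961% and 0.643%. Creole 2, Creole 3 and Spanish 3 had 0 calls there. Intervals and limits cover counting error only, because PCR copies of 1 molecule cannot be recognised without molecular identifiers and calls on neighbouring cytosines share reads.

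The 72.7% of Creole 1 was made of 8 cytosines at 29 of 29 methylated calls and 3 cytosines at 0 of 29. The unmethylated cytosines were those at 20841026, 20841054 and 20841069. All 11 cytosines had the same number of calls in each library: 29 in Creole 1, 36 in Spanish 1 and 54 in Spanish 2. None of the 11 positions was the direct neighbour of another, so the region was read without the opposite strand of any of its CpGs. The calls at each cytosine of Creole 1 were thus all alike, and the counts do not say how many DNA molecules gave the 29 calls. Taken at 1 cytosine, 29 of 29 calls allow a level down to 88.3% (Wilson). With 3 divided by the number of calls, 0 of 36 or 0 of 54 calls allow up to 8.33% in Spanish 1 or 5.56% in Spanish 2.

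Unmethylated cytosines flanked the listed borders directly, and further methylated ones followed in Creole 1. The next cytosine on the lower side, at 20840980, had 0 of 25 methylated calls in Creole 1, 0 of 36 in Spanish 1 and 0 of 54 in Spanish 2. On the higher side, the cytosine at 20841076, 3 bp past the border, had 0 of 29, 0 of 36 and 0 of 54 in the same libraries. Over the 15 cytosines that all 3 libraries read within 100 bp of the region (20840976 to 20841081), the mean level was 53.3% in Creole 1, with 8 cytosines at 100% and 7 at 0%. It was 0.0% in Spanish 1 and 0.0% in Spanish 2, with all 15 cytosines at 0% in each. Beyond these 15, Creole 1 had 12 of 12 methylated calls at 20840957 and at 20840962 and 26 of 26 at 20841106 and 20841124, positions with fewer than 10 calls in Spanish 1 and Spanish 2. On the opposite strand of the CpGs at 20840957 and 20840962, Spanish 2 had 0 of 40 methylated calls at 20840956 and at 20840961. Creole 3 had 0 of 156 at 20840956.

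**Figure D1:**
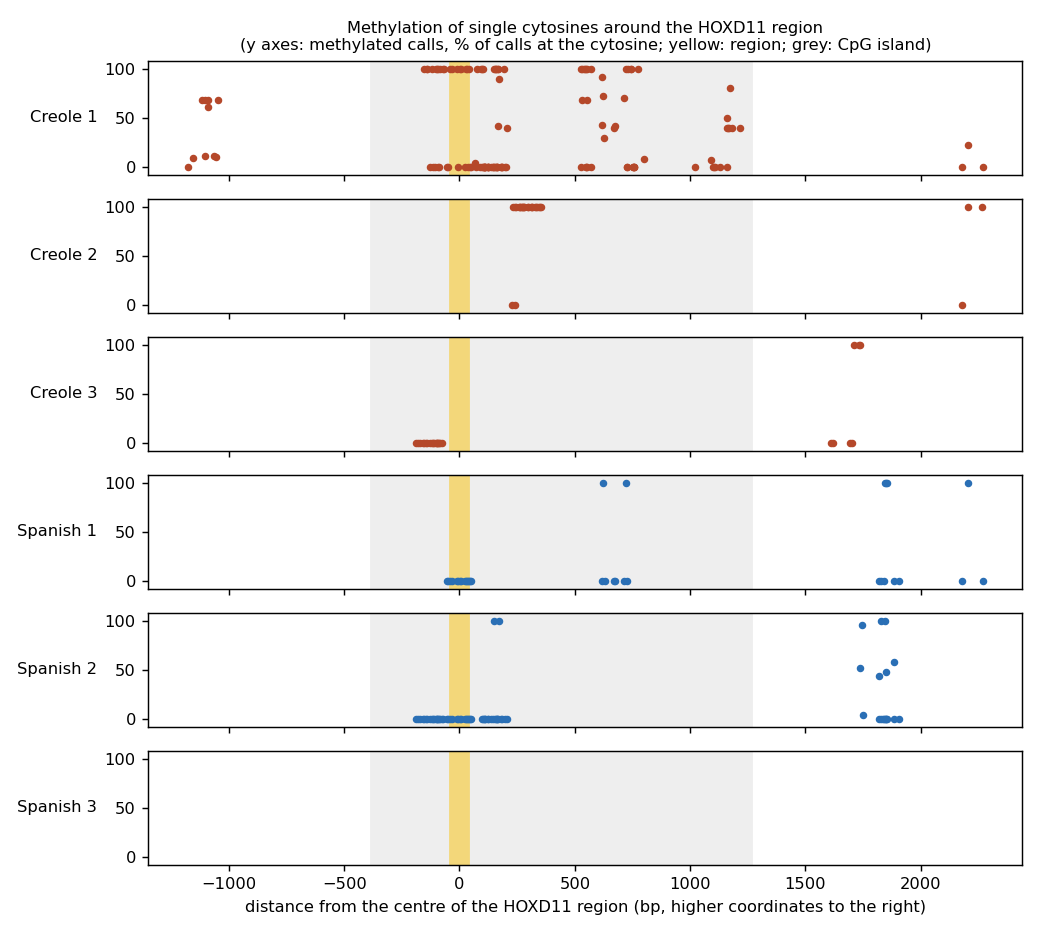
Methylation of single cytosines (y, percent of calls, cytosines with at least 10 calls) against the distance from the centre of the HOXD11 region (x, bp), 1 panel per library. Yellow marks the listed region and grey the CpG island: Creole 1 has cytosines at 0% and at 100% side by side, Spanish 1 and Spanish 2 stand at 0% in the region, and Spanish 3 has no cytosine here.

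Elsewhere in the CpG island the Creole libraries did not stand together. Outside the region, Creole 1 averaged 39.2% over 111 island cytosines, Creole 2 averaged 91.7% over 24 and Creole 3 averaged 0.0% over 18. Among Spanish libraries the island averaged 16.7% over 12 cytosines in Spanish 1 and 4.65% over 43 in Spanish 2, with none in Spanish 3. Creole 2 was thus high and Creole 3 low, and the Creole libraries span the Spanish ones. These values come from different cytosines. In Creole 2, 22 of the 24 cytosines stood at 100% and 2 at 0%. Creole 2 shared 0 island cytosines with any other library, whereas the 18 of Creole 3 were all read in Spanish 2 as well and stood at 0.0% in both.

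At the 34 island cytosines that Creole 1 shared with Spanish 2, Creole 1 averaged 28.6% and Spanish 2 averaged 5.88%. With the listed region left out, 23 shared cytosines remained, at 7.48% in Creole 1 and 8.70% in Spanish 2. With Spanish 1, Creole 1 shared 6 island cytosines outside the region, at 15.3% in Creole 1 and 0.0% in Spanish 1. Spanish 2 had fewer than 10 calls at each of the 33 fully methylated island cytosines of Creole 1 outside the region, among them 20841128, so these shared values do not give the level of Creole 1 in the island. Spanish 2 did read the opposite strand of a part of these CpGs. It had 0 of 40 methylated calls at 20840877, 20840887 and 20841129, for example, but 40 of 40 at 20841179 and 20841200.

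In Creole 1 the strands of an island CpG often read differently. CpG methylation in mammals is normally symmetric, because the maintenance methyltransferase copies the mark to the new strand. Of 30 island CpGs with at least 10 calls on each strand in Creole 1, 13 (43.3%) differed by at least 50 points. At 20841128 and 20841129, for example, 1 strand had 26 of 26 methylated calls and the other 0 of 11. Over the interval, 47 of 130 such CpGs (36.2%) differed that far in Creole 1 and 2 of 7 in Creole 2. The counts were 1 of 19 in Spanish 1, 12 of 112 (10.7%) in Spanish 2 and 4 of 28 (14.3%) in Spanish 3, and Creole 3 had no such CpG. In the rest of the chromosomes the share was 24.7% in Creole 1, 27.1% in Creole 2 and 28.3% in Creole 3, against 24.3%, 21.7% and 22.9% in Spanish 1 to 3. The part of this strand difference in the HOXD11 values was not tested.

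Calls at single cytosines of the interval were mostly all or none, as at HOXD11. The share of interval cytosines with mixed calls was 4.66% in Creole 2 and 5.84% in Creole 3, and 4.08% to 6.52% in the Spanish libraries. Creole 1 differed, with mixed calls at 305 of 976 interval cytosines (31.2%). Creole 1 had about the same share, 31.4%, in the rest of the chromosomes, where the other 5 libraries had 8.29% to 12.8%. The higher share of mixed calls in Creole 1 was thus of the same size inside and outside the HOXD interval.

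The composition of the listed regions shows how common the HOXD11 pattern was. Across the 334 listed regions, 336 region values of single libraries lay between 10% and 90% and rested on 3 or more cytosines with at least 10 calls each. In 148 of them (44.0%) every such cytosine stood at 0% or 100%, and in 91 (27.1%) the cytosines also had equal numbers of calls, as in HOXD11. In Creole 1 alone these were 29 and 12 of 140 values.

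**Figure D2:**
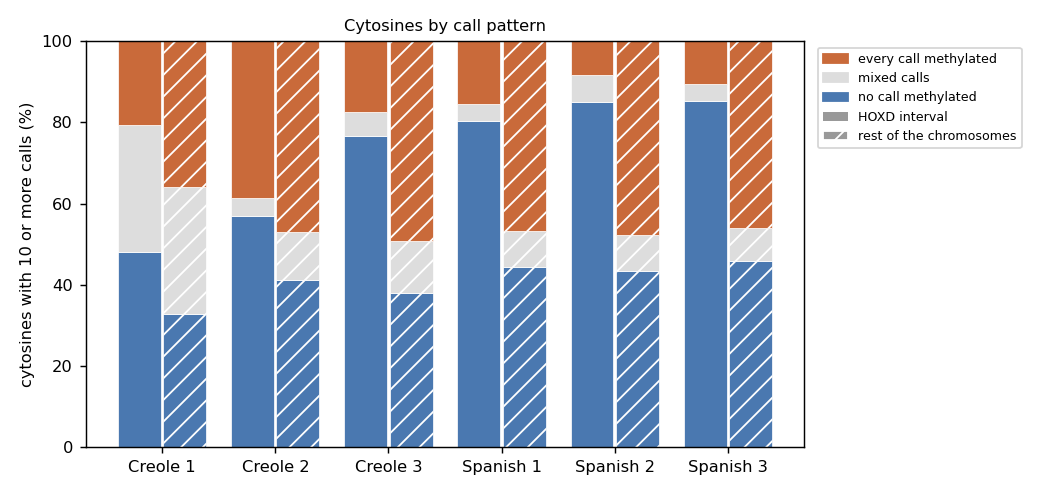
Share of cytosines (y, percent of those with at least 10 calls) with no methylated call, mixed calls or every call methylated, for each library (x), in the HOXD interval (plain) and the rest of the chromosomes (hatched). Mixed calls reach 31.2% in Creole 1 and 4.08% to 6.52% in the other 5 libraries in the interval.

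The HOXD interval as a whole carried less methylation than the rest of the chromosomes in all 6 libraries. Outside the listed region it averaged 33.6%, 40.3% and 19.7% in Creole 1 to 3 and 17.3%, 11.4% and 11.8% in Spanish 1 to 3. The rest of the chromosomes averaged 54.2%, 54.2% and 57.3% in Creole 1 to 3 and 52.1%, 52.9% and 50.8% in Spanish 1 to 3. The mean difference was -31.2 points (exact sign permutation test over 6 libraries, two-sided p = 0.03125, the smallest this design can give). Interval cytosines with no methylated call made up 48.0%, 56.8% and 76.6% in Creole 1 to 3, against 80.4%, 85.1% and 85.3% in Spanish 1 to 3. When only 1000 bp windows with 20 or more covered cytosines were compared, a set that favours CpG-dense sequence, the difference was -19.2 points and 5 of 6 libraries had the lower value in the interval (exact p = 0.0625). There Creole 2 stood at 42.7% in the interval and 38.7% in the rest. Its interval value rests on the windows from 20818001 (30 cytosines, 0.940% of calls) and from 20841001 (24 cytosines, 91.6% of calls).

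Within the interval, each Creole library was higher than each Spanish library. Creole libraries averaged 31.2% ± 10.5 and Spanish ones 13.5% ± 3.27 (SD, n = 3 each), a difference of 17.7 points. The exact two-sided permutation test gave p = 0.10, the smallest that 3 against 3 allows. Creole libraries were also higher in the rest of the chromosomes, by 3.30 points (exact permutation p = 0.10). With each library's own chromosome level subtracted, the difference in the interval was 14.4 points and the groups overlapped (exact permutation p = 0.20), because Creole 3 lay 37.5 points under its own chromosome level and Spanish 1 lay 34.8 points under its own. With calls summed instead of cytosines averaged, the difference was 17.3 points and the groups overlapped as well (exact permutation p = 0.20). In windows with 20 or more covered cytosines it was 14.6 points (exact permutation p = 0.40), and Creole 3, at 0.0%, lay below the Spanish libraries at 4.89% to 17.5%. That value of Creole 3 rests on the window from 20773001 alone (26 cytosines), which read at most 3.045% in any library. The libraries thus differ in which dense windows they cover.

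**Figure D3:**
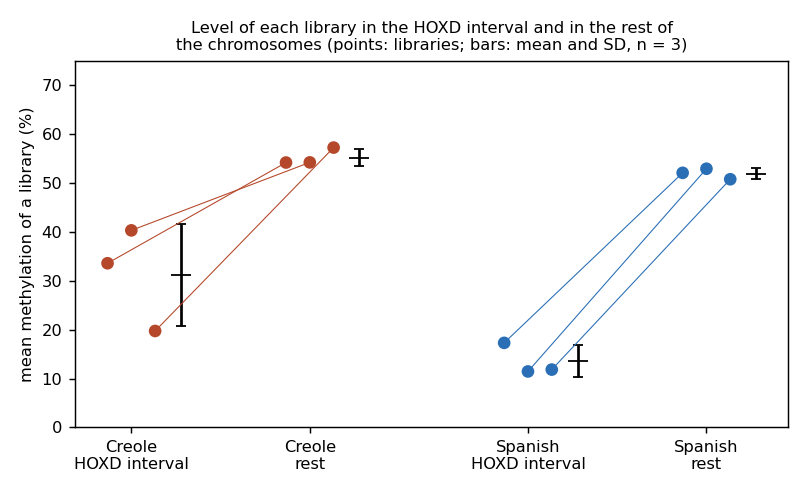
Mean methylation of each library (y, percent) in the HOXD interval and in the rest of the chromosomes (x), Creole at the left and Spanish at the right; lines join the values of 1 library, bars are mean and SD of 3 libraries. All 6 libraries are lower in the interval, and the Creole libraries lie at 19.7% to 40.3% there, above the Spanish libraries at 11.4% to 17.3%.

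Because libraries read different cytosines, each Creole library was also set against each Spanish library at the cytosines they shared. The interval difference was above 0 in 7 of the 9 pairs, which rest on 7 to 290 shared cytosines. It was widest between Creole 2 and Spanish 2, at 40.7% in Creole 2 and 9.81% in Spanish 2 over 118 cytosines. Creole 1 and Spanish 3 followed with 26.9% in Creole 1 and 12.1% in Spanish 3 over 152. Creole 1 minus Spanish 1 was below 0, with 19.3% in Creole 1 and 23.0% in Spanish 1 over 135 cytosines, and Creole 3 minus Spanish 1 was -0.383 points over 7. The mean over the 9 pairs was 8.90 points, against 17.7 points on each library's own cytosines (exact two-sided permutation over the same splits, p = 0.10). At shared cytosines of the rest of the chromosomes the same mean was -0.386 points (exact permutation p = 0.20). The mean of the interval pairs was 5.54 points without Creole 2 and 5.69 points without Spanish 2. Pairs share libraries and are not independent.

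Libraries inside the Creole group differed as well. Creole 1 averaged 36.2% and Creole 2 averaged 46.2% at 150 shared interval cytosines. Creole 2 averaged 29.4% and Creole 3 averaged 47.0% at 17. Among Spanish libraries the differences were narrower, with -4.99 points for Spanish 1 minus Spanish 2, -2.08 for Spanish 1 minus Spanish 3 and -0.470 for Spanish 2 minus Spanish 3. A change of at least 25 points at a shared cytosine occurred in both directions between Creole 1 and Creole 2. Of 150 interval cytosines, 30 were higher in Creole 1 and 45 lower. In the rest of the chromosomes 12.1% of 275066 shared cytosines were higher and 12.1% lower. Against Spanish 1, Creole 1 was higher at 20 of 135 interval cytosines and lower at 23. Against Spanish 2 these counts were 96 and 35 of 290, and against Spanish 3 they were 53 and 9 of 152. As shares of the interval cytosines they were 14.8% and 17.0% against Spanish 1, 33.1% and 12.1% against Spanish 2, and 34.9% and 5.92% against Spanish 3. In the rest of the chromosomes the shares higher and lower were 11.79% and 11.79% against Spanish 1. There they were 11.36% and 11.92% against Spanish 2, and 11.04% and 10.97% against Spanish 3.

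**Figure D4:**
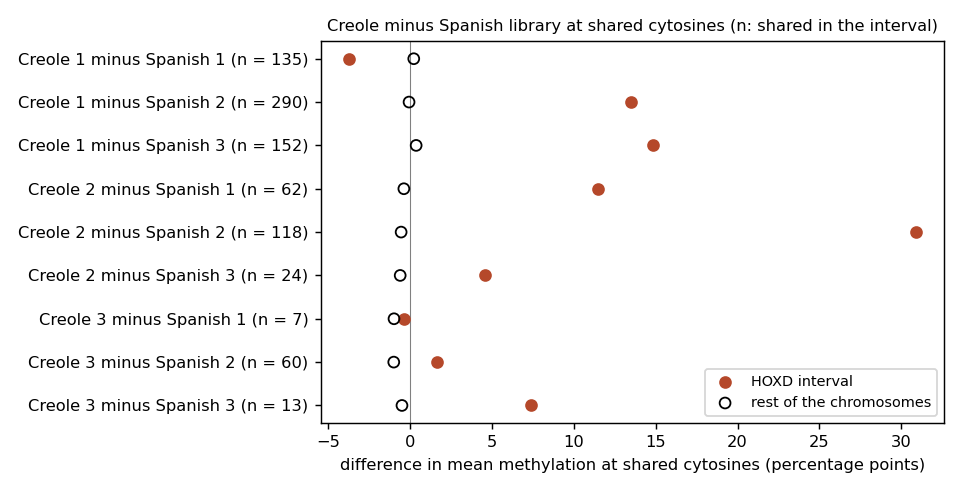
Difference in mean methylation (x, percentage points) between a Creole and a Spanish library at the cytosines both read, for each of the 9 pairs (y, with the number of shared interval cytosines). Filled points are the HOXD interval, from -3.71 to 30.9 points, and open points the rest of the chromosomes, all within 1 point of 0.

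A test across windows reached few parts of the interval. In the fit across the genome, windows of 1000 bp needed 3 cytosines with 10 calls in all 6 libraries, and 0 of the 2402 windows that had them lay in the interval. Of these 2402 windows 0 (0.0%) passed an adjusted p of 0.05 in edgeR's quasi-likelihood test, 135 had an unadjusted p under 0.05, limma called 0 and edgeR's likelihood ratio test 16. When cytosines with 10 calls in at least 2 libraries of each group were used, 15646 windows were tested and 3 lay in the interval. Of the 15646, 0 (0.0%) passed the quasi-likelihood test, with 635 at an unadjusted p under 0.05.

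The 3 interval windows showed 3 different states. The window 20773001 to 20774000 was at or near 0% in every library. Its 10 cytosines had 0 methylated calls in all Creole libraries, of 137 in Creole 1, 19 in Creole 2 and 854 in Creole 3. The Spanish libraries had 0 of 282, 0 of 251 and 1 of 882 calls (edgeR adjusted p = 0.982). The window 20824001 to 20825000 held 4 such cytosines and read 25% in Creole 1, 0.0% in Creole 2 and 24.3% in Creole 3. All 3 Spanish libraries read 0.0% there, on 92 to 1129 calls. The value of Creole 2 rests on 38 calls at 1 of the 4 cytosines, at which Creole 3 also read 0.0%, on 112 calls. Creole libraries averaged 16.4% ± 14.2 and Spanish ones 0.0% ± 0.0 (SD, n = 3 each), with an unadjusted p of 0.0449 and an adjusted p of 0.982 in edgeR's quasi-likelihood test. The adjusted p was 0.718 in limma and 0.85 in edgeR without Creole 2. The cytosine at 20824613, in this window, was the 1 interval cytosine read in all 6 libraries, with 58.1% in Creole 1 and 0.0% in the other 5. The window 20831001 to 20832000 read 37.6% in Creole 1 and 12.5% in Creole 2, against 12.5% in Spanish 1 and 0.0% in Spanish 2 (edgeR adjusted p = 0.982).

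On each library's own cytosines, 19 windows outside the region were measured in at least 2 libraries per group, with 3 or more cytosines in each. In 4 of the 19 every measured Creole library was above every measured Spanish library, and in 0 every measured Creole library was below. Over the genome 10.5% of 37870 windows showed the first order and 12.0% the second. Without Creole 1, 1 of 4 windows remained above and 1 of 4 was below. Without Creole 2 it was 1 of 4 above, and without Spanish 2 it was 2 of 11 above and 1 below. The Creole mean was higher in 14 of the 19 windows and lower in 5, with a median difference of 13.6 points. Of 37849 windows of the rest of the chromosomes it was higher in 18807 and lower in 18656, with a median of 0.0.

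**Figure D5:**
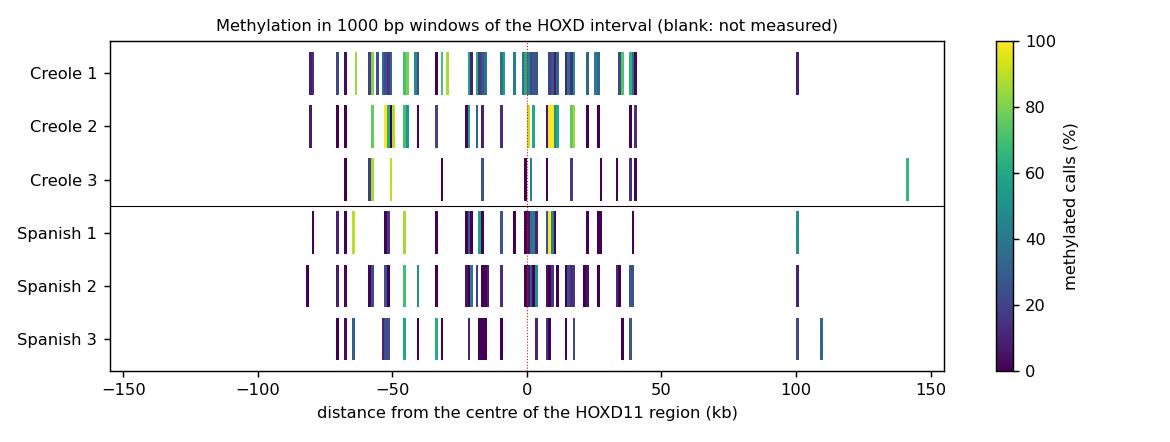
Methylation in 1000 bp windows (colour, percent of calls) by distance from the centre of the HOXD11 region (x, kb), 1 row per library, blank where not measured. Intermediate and high windows are spread through the Creole 1 and Creole 2 rows, low windows prevail in the Spanish rows, and few windows are filled in all 6 rows.

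The 4 windows were 20819001 to 20820000, 20824001 to 20825000, 20858001 to 20859000 and 20867001 to 20868000. Creole 3 was measured in the window from 20824001 only. In the windows from 20858001 and 20867001 the order rests on 2 libraries of each group, the fewest allowed. In the window from 20824001, Creole 2 read 8.92% over its own 14 cytosines, and Spanish 1 read 0.246% over 13. Creole 1 read 25% and Creole 3 read 24.3%, and Spanish 2 and Spanish 3 read 0.0%, on 4 cytosines each. At 20824613, which all 6 libraries read, Creole 2 and Creole 3 stood at 0.0% like the Spanish libraries, so the order does not hold there. In the window from 20819001, Creole 1 read 58.3% and Creole 2 read 55.8%, whereas Spanish 1 read 29.7%, Spanish 2 read 0.0% and Spanish 3 read 10.0%. In the window from 20858001, Creole 1 read 49.8% and Creole 2 read 85.8%, whereas Spanish 2 read 15.7% and Spanish 3 read 21.5%. The gap was narrow in the window from 20867001, where Creole 1 read 32.6% but Creole 2 read 0.140%, and Spanish 1 and Spanish 2 both read 0.0%. The window from 20795001 stood out for being methylated throughout, with 70.8% in Creole 1 and 70.0% in Creole 2, and 86.0%, 69.9% and 60.0% in Spanish 1 to 3. It was the 1 window of the 19 with every measured library at 50% or more, while 1 other, from 20773001, had every library at 10% or less.

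In steps of 100 bp, Creole 1 could be set against the mean of at least 2 Spanish libraries in 44 bins outside the region. It was at least 25 points above that mean in 10 bins and at least 25 points below it in 2, whereas 11.3% and 12.7% of 127564 bins over the genome passed these limits. The median difference over the 44 bins was 0.0 points. Such bins were not particular to Creole 1. Creole 2 was above in 4 of 18 bins and below in 2, and Creole 3 above in 1 of 10 and below in 2. Each Spanish library was set against the mean of the other Spanish libraries, in 16 bins. Spanish 1, 2 and 3 were above in 3, 4 and 3 and below in 4, 2 and 2. For these libraries 12.95% to 13.9% of bins in the rest of the chromosomes were above and 12.2% to 16.0% below. Both bins that overlap the listed region were above the limit, with 55.5% and 50.9% in Creole 1 against 0.0% in Spanish 1 and Spanish 2. In the first of these bins, from 20840901, Creole 3 also had 11 cytosines, all outside the listed region, and read 0.0%. Outside it, the bin from 20863001 had the widest gap, with 62.4% in Creole 1 against 0.0% in Spanish 1 and 1.83% in Spanish 2. In the bin from 20825601 Creole 1 read 40.6%, against 0.0% in Spanish 2 and 0.0% in Spanish 3. Both bins from 20788601 and 20788701 were intermediate in some Spanish libraries as well. The first read 62.3% in Creole 1, against 0.0% in Spanish 1, 40.0% in Spanish 2 and 17.9% in Spanish 3. The second read 56.1% in Creole 1, against 14.3% in Spanish 2 and 35.2% in Spanish 3.

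In 4 of the 10 bins above, another Creole library could be read too. The bin from 20824601 read 40.0% in Creole 1, 22.4% in Creole 2 and 42.4% in Creole 3, against 0.0% in each Spanish library. These values rest on 6 cytosines in Creole 2 and on 2 or 3 in the others, and at 20824613, which all 6 libraries read, Creole 2 and Creole 3 were at 0.0% like the Spanish libraries. The bin from 20831201 read 37.1% in Creole 1 and 14.3% in Creole 2, against 0.0% in each Spanish library. The bin from 20831301 read 40.0% in Creole 1 but 0.0% in Creole 2, against 35.1% in Spanish 1, 0.0% in Spanish 2 and 0.0% in Spanish 3. In the bin from 20879401 Creole 3, with 16.7%, stood below 24.5% in Spanish 2 and 33.3% in Spanish 3, while Creole 1 read 60.8%. In the opposite direction the bin from 20941001 rested on 1 cytosine, with 37.0% in Creole 1 against 100% in Spanish 1 and 70.4% in Spanish 2. The 10 bins above became 8 of 27 without Spanish 1, 5 of 18 without Spanish 2, and 4 of 29 without Spanish 3, which then stood beside 4 below.

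HOXD11 was 1 of 49 listed regions with at least 10 calls in Creole 1, Spanish 1 and Spanish 2 and in no other library, and 39 of the others carry a gene name. The 5 closest to HOXD11 by mean absolute difference in level over Creole 1, Spanish 1 and Spanish 2 were CYP24A1, F1MNG1_BOVIN, A6H7C6_BOVIN, MTA1 and AL3B1_BOVIN. CYP24A1, the enzyme that breaks down active vitamin D, differed by 1.70 points on average, with 74.6% in Creole 1 against 0.0% in Spanish 1 and 3.18% in Spanish 2. Its intronic region lay in an island core as well. Spanish 1 had 24 calls over 12 cytosines there, so its cytosines were read far less deeply than those of HOXD11. MTA1, a subunit of the NuRD chromatin complex, had 62.1% in Creole 1 and 0.0% in Spanish 1 and Spanish 2. In Creole 1, MTA1, F1MNG1_BOVIN and A6H7C6_BOVIN had cytosines with mixed calls. CYP24A1 and AL3B1_BOVIN had every cytosine at 0% or 100% there, as HOXD11 did. The others lay between 61.8% and 81.7% in Creole 1 and at 0.0% in Spanish 1 and Spanish 2, which for F1MNG1_BOVIN in Spanish 2 rests on 11 calls over 11 cytosines. These regions were chosen by the same contrast as HOXD11.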

How the data were processed

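The members and tests were chosen with earlier results of these data known. The submitters' processing notes name Trim Galore, Bismark, methylKit and the build UMD3.1. For tool settings, duplicate handling and the caller of the region table, the entry is: not given in the sources used here. Per the labels, MspI ends were filled with CG bases, so such cytosines report added bases; leaving out the ends of covered stretches was 1 alternative. The deposited coverage files hold raw counts of methylated and unmethylated calls per cytosine, strands apart, beside a deposited percent that was not used. The authors' deposited table gives group means as a fraction and a score per region; the score was not used, and the table holds 0 columns of single samples.

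A level is methylated over all calls, on chromosomes only, at cytosines with at least 10 calls. For the listed regions most like HOXD11, all calls of a region were summed, with at least 10 in the region and no minimum per cytosine. Groups followed the breed labels, and replicate numbers pair no animals. The planned level over cytosines shared by all 6 libraries rested on 1 cytosine, under the 20 required, so each library's own cytosines, weighted equally, took its place. Exact permutation tests used scipy 1.17.1. Windows were fitted with edgeR 4.0.16 (quasi-likelihood, library effects in the design, no dispersion trend, Benjamini-Hochberg over all windows) and limma 3.58.1 (log2 ratio, 2 added to each count) in R 4.3.3, and the fits were tested on simulated data. Single cytosines, windows of 1000 bp and bins of 100 bp were described with pandas 2.3.3 and numpy 2.4.6 in Python 3.11.15, and plotted with matplotlib 3.10.9. The named loci were the HOXD11 region, the interval windows that could be tested, the windows without overlap between groups, bins in which Creole 1 differed by 25 points, and the 5 regions most like HOXD11; the windows without overlap between groups and the window from 20795001 were added after their values were seen. Alternatives changed the call minimum, weighting, strands, window, grid, interval or test, or left out each library. DNA sequence of UMD3.1 was not used here.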

Additional observations from a re-analysis of the deposited data

How the results depend on the processing

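On average over libraries, the interval was lower than the rest of the chromosomes under every alternative tried. Leaving out each library in turn gave -34.7 to -29.2 points, where 5 libraries cannot reach a p under 0.0625, and windows with 20 or more cytosines gave -19.2 points. The Creole mean was above the Spanish mean in the interval under every alternative tried, by 8.90 points in matched pairs to 19.4 points with all libraries in. With 1 library left out it was 13.1 to 23.4 points, and 5.54 to 12.1 points in matched pairs. At 5 or 20 calls per cytosine it was 18.7 or 18.1 points. The planned level, over the 1 cytosine read in all 6 libraries, was 19.4 points and rests on Creole 1 alone. The HOXD11 difference could not move under the alternatives tried, since its 11 cytosines had equal calls and 3 libraries had none, and without Creole 1 it could not be computed. Across the genome edgeR's likelihood ratio test called 16 of 2402 windows and the other settings 0 of 1663 to 15646. The count of windows with every measured Creole library above every measured Spanish library ran from 1 to 5 with 1 library left out. The 10 of 44 bins of Creole 1 (22.7%, genome 11.3%) became 5 of 18 at 20 calls per cytosine (27.8%, genome 9.99%). They became 6 of 27 in bins of 1000 bp (22.2%, genome 7.28%) and 5 of 15 with 3 Spanish libraries (33.3%, genome 9.08%). At 50 points 1 of 44 remained (2.27%), under the genome share of 3.46%. With 1 Spanish library left out the count was 4 to 8. The lowest, without Spanish 3, was 4 of 29 (13.8%, genome 11.5%). No paired analysis was possible because replicate numbers follow sample order and pair no animals. The matched pairs, stretches, dense windows and left-out counts of windows were chosen after seeing the data.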
